A study of Danio rerio with 12 samples.

Results

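The genes of synaptic vesicle fusion were examined in the RNA-Seq transcriptome of heads from 5 dpf (days post fertilization) *rb1/rb1* mutant and wild-type zebrafish larvae. Members were taken by name from the table of gene counts: synaptotagmins (*syt*), syntaxins (*stx*), syntaxin-binding proteins (*stxbp*), *snap25* genes, *vamp* genes, complexins (*cplx*), *sv2* genes, synaptophysins (*sypa*, *sypb*) and synapsins (*syn1* to *syn3*), each with at least 10 counts over all 12 count columns. This gave 82 of the 32266 genes in the table, of which 81 passed the filter on low counts and were tested. They were sorted by name into 27 genes of conventional synapses, 7 genes used at ribbon synapses (*cplx3*, *cplx4* and *stx3* genes), 19 other synaptotagmins and 29 other SNARE and syntaxin-binding protein genes. The last class serves mostly in membrane traffic outside the synaptic vesicle. It is labelled other SNARE and Munc18-family genes, though its *stxbp4*, *stxbp5* and *stxbp6l* genes are not of the Munc18 family.

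The mutant libraries came from rb1-/- larvae and the wild-type libraries from their +/+ siblings, all on the WIK background. Each genotype had 3 libraries, and each library was made from a pool of 5 heads cut off through the hindbrain, so a pool holds brain, retina, inner ear, pituitary, muscle and skin. The mutant allele is a germline frameshift in *rb1* exon 2 that is lethal in larvae when homozygous, and mutant larvae at this age lack a swim bladder. The pools were separate animals, and 1 allele was studied.

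Vesicles fuse when a vesicle SNARE (Vamp, or synaptobrevin) zippers with the plasma membrane SNAREs syntaxin and Snap25, a step guided by Munc18-family proteins, held by complexin and triggered when calcium binds synaptotagmin. Most synapses of the brain use one set of these proteins. Photoreceptors, bipolar cells and hair cells release continuously from ribbon synapses, and in the mammalian retina these use the complexins Cplx3 and Cplx4 and the syntaxin Stx3 in place of the conventional complexins and syntaxin 1.

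Library totals lay between 45158621 and 47700950 counts for the mutant and between 41065256 and 46621056 counts for the wild type. Transcripts of *rb1* had 570, 491 and 422 counts in the mutant pools and 1221, 830 and 826 counts in the wild-type pools (log2 fold change -1.09, edgeR quasi-likelihood adjusted p = 0.0121). Among 13 markers of cycling cells, 9 were upregulated in the mutant at an adjusted p of 0.05 (beside 3.82% of all tested genes). With the pool number as a block, 13 were upregulated (beside 1161 of 22753 genes). The summed level of the 13 was 1762 to 1967 CPM (counts scaled to a common library size with TMM factors) in the mutant, against 675 to 1105 CPM in wild type. Whether markers of other cells moved is given beside the member genes they concern. In whole heads, fewer cells of a type and less RNA per cell cannot be told apart.

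No member was called at the threshold used for the whole transcriptome (1.5-fold or more with an adjusted p of at most 0.01), against 0.897% of all tested genes called higher and 0.286% called lower. At an adjusted p of 0.05 no member was higher in the mutant (0% of 81, against 3.82% of all genes) and 4 members were lower (4.94%, against 2.17% of all genes). The 4 were *syt10*, *syt13*, *stxbp6l* and one of the 2 identifiers of *cplx3a*. With the pool number as a block, 1 member was higher and 6 were lower, beside 1161 higher and 917 lower of all 22753 tested genes. At an unadjusted p under 0.05, 4 members were higher (4.94%, against 12.8% of all genes) and 11 were lower (13.6%, against 10.5%). All 3 mutant pools lay above all 3 wild-type pools in 5 members (6.17%, against 16.1% of all genes) and below them in 13 members (16.0%, against 13.2%). The median log2 fold change over the 81 members was -0.07, beside -0.01 over all tested genes.

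**Figure D1:**
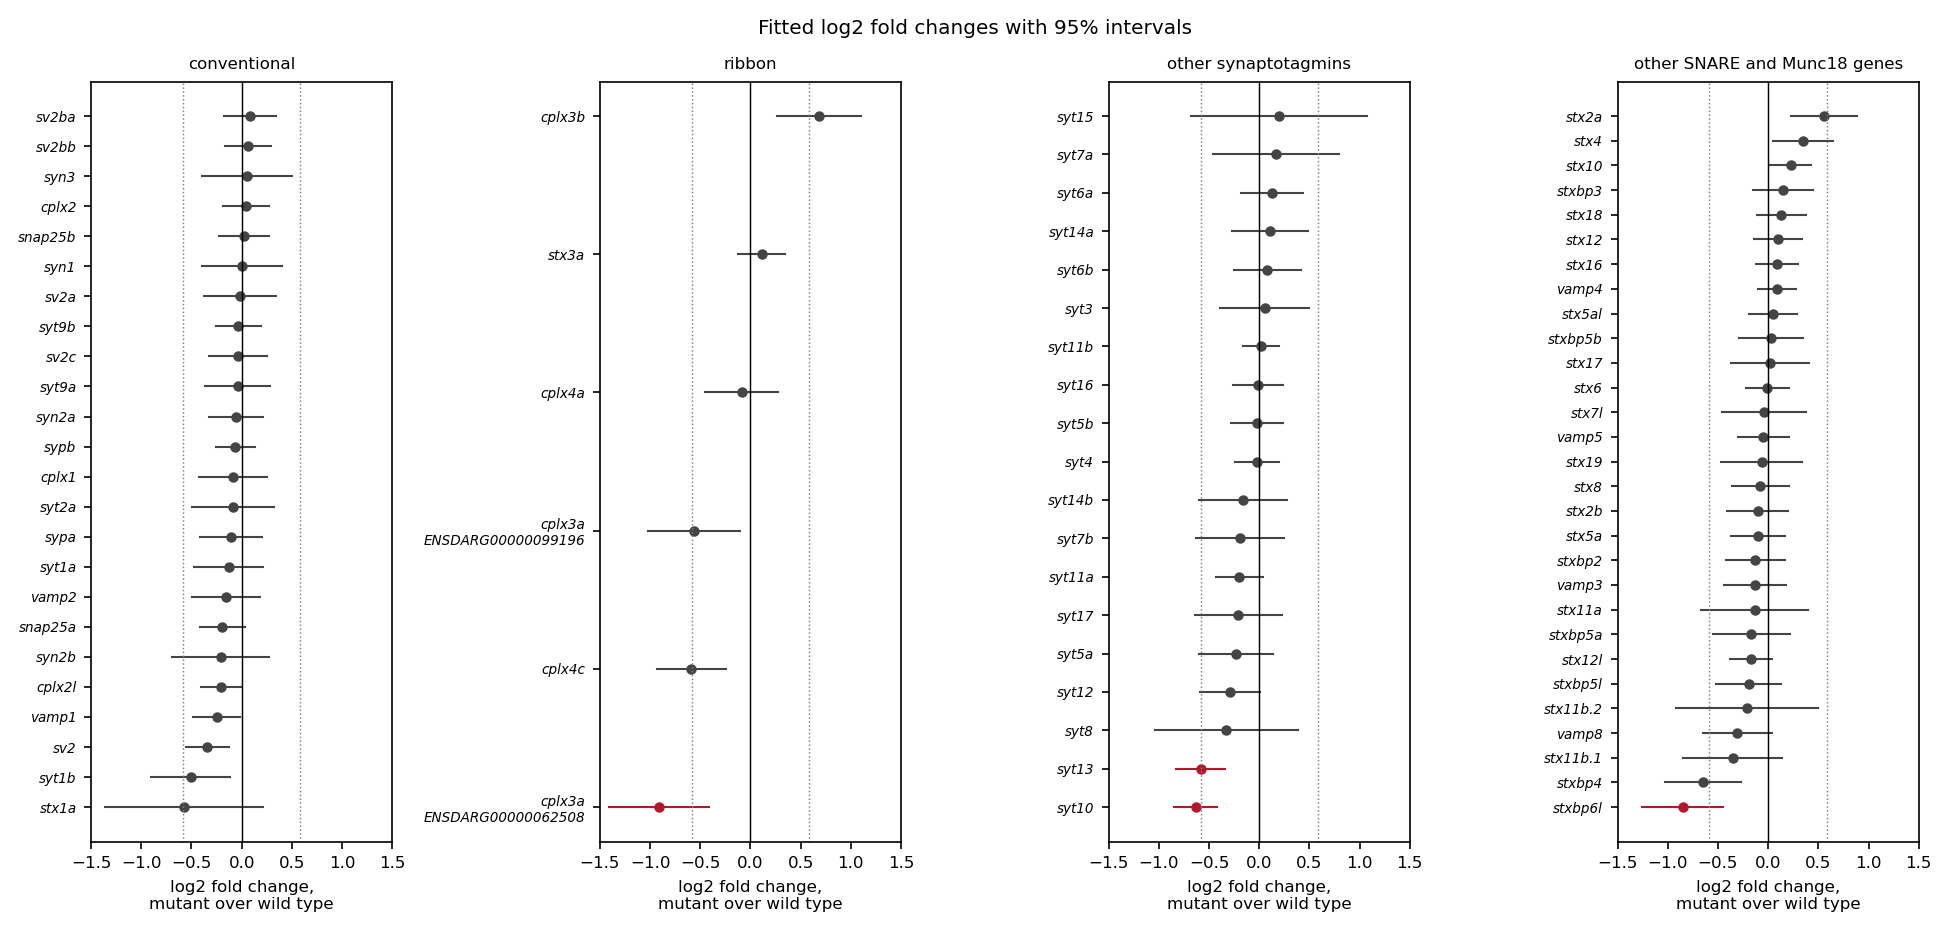
Fitted log2 fold change (mutant over wild type, points) with its 95% interval (lines) for 78 of the 81 tested members, in 4 panels by class. Red marks an adjusted p of at most 0.05, dotted lines a 1.5-fold change either way. The conventional genes lie close to 0, with a median of -0.06 over all 27, while the 6 ribbon genes spread from -0.91 to 0.69.

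The conventional fusion genes gave small differences. None of the 27 passed an adjusted p of 0.05 in either direction (against 3.82% of all tested genes higher and 2.17% lower). At an unadjusted p under 0.05, none was higher (0%, against 12.8% of all tested genes) and 4 were lower (14.8%, against 10.5%). Their median log2 fold change was -0.06, with 21 of 27 below 0 (77.8%, against 51.8% of all tested genes). For 24 of the 27 (88.9%, against 52.2% of all tested genes) the 95% interval of the fold change stayed within 1.5-fold both ways. The exceptions were *stx1a*, *syt1b* and *syn2b*. The width of an interval depends on the counts of the gene, and the share of all genes was not matched for abundance.

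Of the plasma membrane SNAREs, *snap25a* (ENSDARG00000020609) had 472, 539 and 515 CPM in the mutant pools, against 540, 606 and 597 CPM in the wild-type pools. Each mutant pool was below each wild-type pool, the nearest pair only just, and the log2 fold change of -0.19 (95% interval -0.42 to 0.03) did not pass the test (edgeR adjusted p = 0.287). Its paralogue *snap25b* (ENSDARG00000058117) had 317, 327 and 266 CPM in the mutant, against 285, 307 and 304 CPM in wild type, with overlapping groups and a log2 fold change of 0.02 (-0.22 to 0.27). The syntaxin gene *stx1a* was at 0.42 to 0.77 CPM in the mutant and 0.60 to 1.08 CPM in wild type, too low for a narrow interval (log2 fold change -0.57, -1.36 to 0.21).

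The vesicle SNARE *vamp2* had 117, 139 and 97.7 CPM in the mutant, against 116, 140 and 138 CPM in wild type. Only mutant pool 3 stood below the rest, and the log2 fold change was -0.15 (-0.49 to 0.19). The related *vamp1* had 88.8, 97.6 and 80.3 CPM in the mutant, against 99.2, 109 and 109 CPM in wild type, without overlap (log2 fold change -0.25, edgeR adjusted p = 0.195).

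The calcium sensor *syt1a* had 401, 457 and 316 CPM in the mutant, against 384, 448 and 452 CPM in wild type (-0.13, -0.47 to 0.21), again with mutant pool 3 the lowest. The scarce paralogue *syt1b* had 1.45, 1.44 and 1.83 CPM in the mutant, against 2.39, 2.10 and 2.20 CPM in wild type. These groups did not overlap, and the log2 fold change of -0.51 did not pass (edgeR adjusted p = 0.126). The other fast sensors *syt2a*, *syt9a* and *syt9b* lay between -0.09 and -0.03. The complexins *cplx1*, *cplx2* and *cplx2l*, which bind the assembled SNARE bundle, had log2 fold changes of -0.08, 0.04 and -0.21. In *cplx2l* the mutant pools had 135, 150 and 141 CPM, all below the 160, 162 and 169 CPM of the wild-type pools (edgeR adjusted p = 0.206).

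Vesicle membrane and vesicle-tethering genes also lay near 0, with 1 gene apart from the rest. The synaptophysin genes *sypa* and *sypb*, coding for abundant vesicle membrane proteins, had log2 fold changes of -0.11 and -0.06, and the synapsins *syn1*, *syn2a*, *syn2b* and *syn3*, which tether vesicles in the reserve pool, lay between -0.21 and 0.05. Of the 5 *sv2* genes, coding for vesicle glycoproteins, *sv2a*, *sv2ba*, *sv2bb* and *sv2c* lay between -0.04 and 0.08. The gene listed as *sv2* (ENSDARG00000091833) was at 6.82 ± 0.311 FPKM in the mutant and 8.29 ± 0.399 FPKM in wild type (SD, n = 3 each). Every mutant pool was below every wild-type pool, and the log2 fold change of -0.34 had an edgeR adjusted p of 0.0742 (0.0374 with DESeq2).

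**Figure D2:**
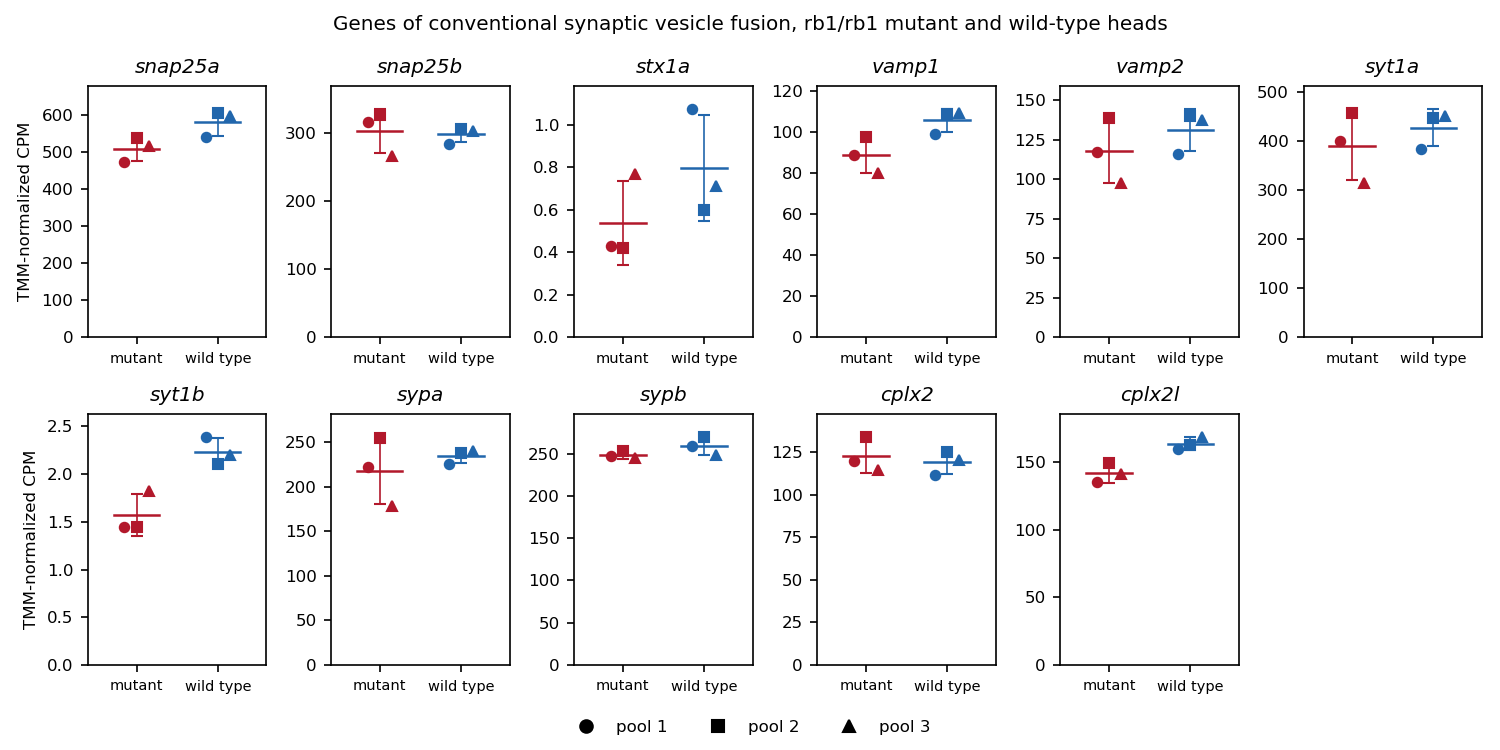
TMM-normalized CPM of 11 conventional fusion genes in each pool, mutant in red on the left and wild type in blue on the right of each panel. Horizontal lines are means, bars are SDs (n = 3) and the symbol gives the pool number. In *vamp2*, *syt1a* and *sypa* the mutant triangle (pool 3) is the lowest of the 6 values, and *snap25a* in the mutant lies at 472 to 539 CPM, below the 540 to 606 CPM of wild type.

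Per exonic length, the most abundant members in both genotypes were conventional genes, though others of the class, such as *stx1a* and *syt1b*, were scarce. In FPKM (mean ± SD, n = 3 each), *sypa* was at 204 ± 42.6 in the mutant and 210 ± 7.87 in wild type, *snap25b* at 196 ± 27.7 and 185 ± 7.71, and *snap25a* at 185 ± 15.3 and 203 ± 12.9. Other members with high levels included *cplx1*, *vamp2*, *syt1a* and *sypb*, with means from 119 to 138 FPKM in the mutant and from 119 to 143 FPKM in wild type. In the mutant, the gaps from *sypa* to *snap25b* and from *snap25b* to *snap25a* were smaller than the SDs of these genes. Summed over the 27 genes, the mutant pools had 1830, 2091 and 1519 FPKM, against 1718, 1900 and 1912 FPKM in the wild-type pools, so the mutant pools held both the highest and the lowest sum.

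The mutant pools differed among themselves in these genes. Mutant pool 3 had the lowest of the 6 values in 20 of the 27 conventional genes (74.1%, against 20.9% of all tested genes), and mutant pool 2 had the highest in 14 of 27 (51.9%, against 17.2% of all genes). The median conventional gene differed from the wild-type mean by -0.05, 0.10 and -0.29 on the log2(CPM + 1) scale in mutant pools 1, 2 and 3, and by -0.06, 0.04 and 0.03 in the wild-type pools. The median conventional log2 fold change was 0.02 without mutant pool 3, -0.16 without mutant pool 2 and -0.11 without wild-type pool 1. The other synaptotagmins had mutant pool 3 at the bottom in 12 of 19 genes (63.2%), whereas it was lowest in 0 of the 6 ribbon genes and in 4 of the 29 other SNARE genes. The summed level of 12 neuron markers (*elavl3*, *gap43*, *stmn2a* and others) was also highest in mutant pool 2 and lowest in mutant pool 3. It was 2429, 2647 and 2029 CPM in mutant pools 1 to 3 and 2159, 2289 and 2152 CPM in the wild-type pools. Not every marker followed the sum. In the neurofilament genes *nefla*, *neflb*, *nefma* and *nefmb*, mutant pool 3 was the highest of the mutant pools. At an adjusted p of 0.05, 0 of the 12 neuron markers were higher and 2 were lower in the mutant. Of all tested genes, 3.82% were higher and 2.17% lower. With the pool number as a block, 0 of the 12 passed in either direction (beside 1161 higher and 917 lower of 22753 tested genes). The median log2 fold change of the 12 was 0.05, and none was at 0 in all pools. The part of neuron content in the pool difference was not tested.

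**Figure D3:**
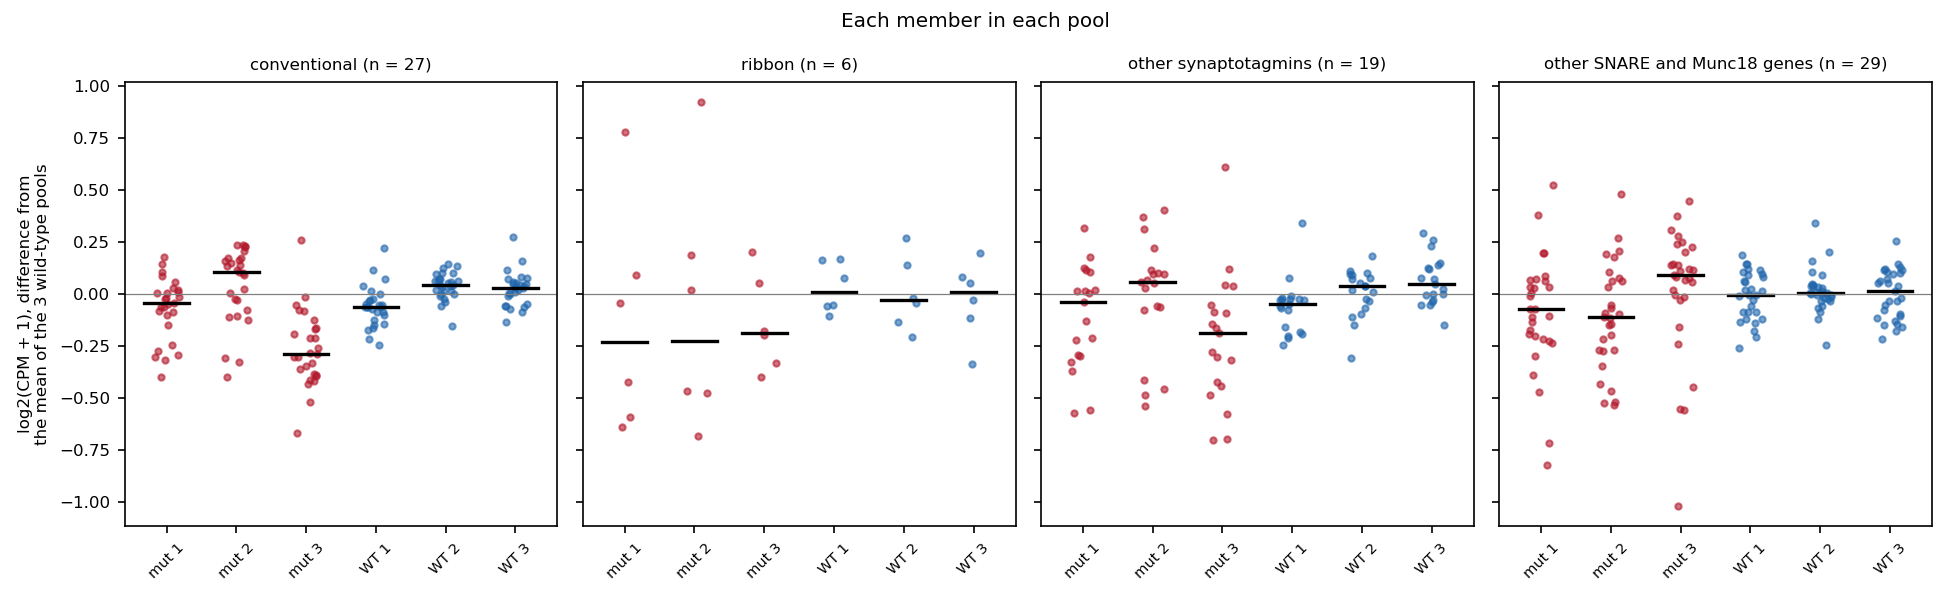
Difference of each tested member from its wild-type mean, in log2(CPM + 1), by pool (mutant pools in red to the left, wild-type pools in blue to the right) and by class. Each point is a gene and each black line a median. The median of the 27 conventional genes is -0.29 in mutant pool 3 and 0.10 in mutant pool 2, while the other SNARE and Munc18-family genes have their highest median, 0.09, in mutant pool 3.

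The ribbon complexins did not move together. The paralogues of *cplx3* lay on opposite sides of wild type, *cplx4c* was below wild type in every mutant pool, and *cplx4a* and *stx3a* gave differences near 0. The median log2 fold change of the 6 tested ribbon identifiers was -0.33, and -0.088 with both *cplx3a* identifiers summed into 1 gene, an alternative chosen after seeing the data. Of the 6 intervals, 2 stayed within 1.5-fold (33.3%, against 52.2% of all genes, not matched for abundance). Counted without overlap between the groups, 1 of the 6 ribbon identifiers was higher and 3 were lower in the mutant (beside 16.1% and 13.2% of all genes), and 2 of those 3 were the identifiers of *cplx3a*. The mean log2(CPM + 1) of the ribbon genes less that of the conventional genes was -2.46 ± 0.13 in the mutant and -2.44 ± 0.08 in wild type (SD, n = 3 each), a difference of -0.02, smaller than either SD.

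The complexin gene *cplx3b* (ENSDARG00000089486) had 42.6, 47.2 and 28.3 CPM in the mutant, against 23.4, 24.1 and 25.9 CPM in wild type. Mutant pools 1 and 2 stood far above every wild-type pool and mutant pool 3 only just above. The fold change was 1.61 (log2 0.69, SE 0.18, 95% interval 0.27 to 1.11), the largest rise among the members, and it did not pass the test (edgeR adjusted p = 0.0686, with DESeq2 0.0107). Without mutant pool 3 the log2 fold change was 0.88 with an edgeR adjusted p of 0.00727, which would call it. Without mutant pool 1 it was 0.63 (edgeR adjusted p = 0.224), and without mutant pool 2 it was 0.54 (0.113). In FPKM *cplx3b* was the most abundant ribbon gene of the mutant, at 67.3 ± 19.0, and stood at 39.9 ± 2.40 in wild type.

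The gene *cplx3a* has 2 identifiers in the table. ENSDARG00000062508 had 33, 31 and 31 counts in the mutant and 69, 47 and 48 counts in wild type, without overlap, a log2 fold change of -0.91 (SE 0.21, edgeR adjusted p = 0.0497). ENSDARG00000099196 had 101, 116 and 134 counts in the mutant and 157, 128 and 193 counts in wild type, and was also lower in CPM in every mutant pool (-0.56, edgeR adjusted p = 0.136). Since only uniquely aligned reads were counted, reads shared by the 2 identifiers may be missing, and the split between them is uncertain. With both summed, the counts were 134, 147 and 165 in the mutant, against 226, 175 and 241 in wild type, and the log2 fold change was -0.65 (edgeR adjusted p = 0.0649), no longer past 0.05. The single-identifier call also ended when any 1 of the 6 pools was left out (adjusted p 0.0716 to 0.182).

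The *cplx3* paralogues were also set against each other. Since *cplx3a* was lower and *cplx3b* higher without overlap, their ratio had to separate the genotypes and adds no evidence. The share of *cplx3a* in the summed FPKM of *cplx3a* and *cplx3b* was 2.28%, 2.18% and 4.45% in the mutant pools, against 7.35%, 6.27% and 6.85% in the wild-type pools. The log2 ratio of *cplx3a* to *cplx3b* averaged -5.11 in the mutant and -3.77 in wild type, a difference of -1.33, and mutant pool 3 again lay nearest to wild type. With 3 pools against 3 an exact permutation test cannot go below p = 0.1, and none was run on this pair, which was singled out after its values were seen.

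Among the *cplx4* genes, which in mammals act at photoreceptor ribbons, *cplx4c* (ENSDARG00000094889) had 12.3, 11.9 and 15.4 CPM in the mutant, against 22.1, 16.9 and 20.4 CPM in wild type. The groups did not overlap, and the log2 fold change was -0.59 (SE 0.15, edgeR adjusted p = 0.0605). Blocking on pool number gave an adjusted p of 0.0356, and without mutant pool 3 it was 0.0329. Without mutant pool 1 or mutant pool 2 it was 0.221 or 0.105. The more abundant *cplx4a* (ENSDARG00000059978) had 96.2, 100.5 and 87.7 CPM in the mutant and 105, 120 and 78.4 CPM in wild type, with wild-type pool 3 the lowest of all (-0.09, -0.45 to 0.27). The third gene, *cplx4b*, had 2, 2 and 5 counts in the mutant and 3, 1 and 1 counts in wild type and was not tested. The syntaxin *stx3a* was at 11.7 ± 0.995 FPKM in the mutant and 10.4 ± 0.909 FPKM in wild type (SD, n = 3 each, log2 fold change 0.11, -0.12 to 0.34).

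**Figure D4:**
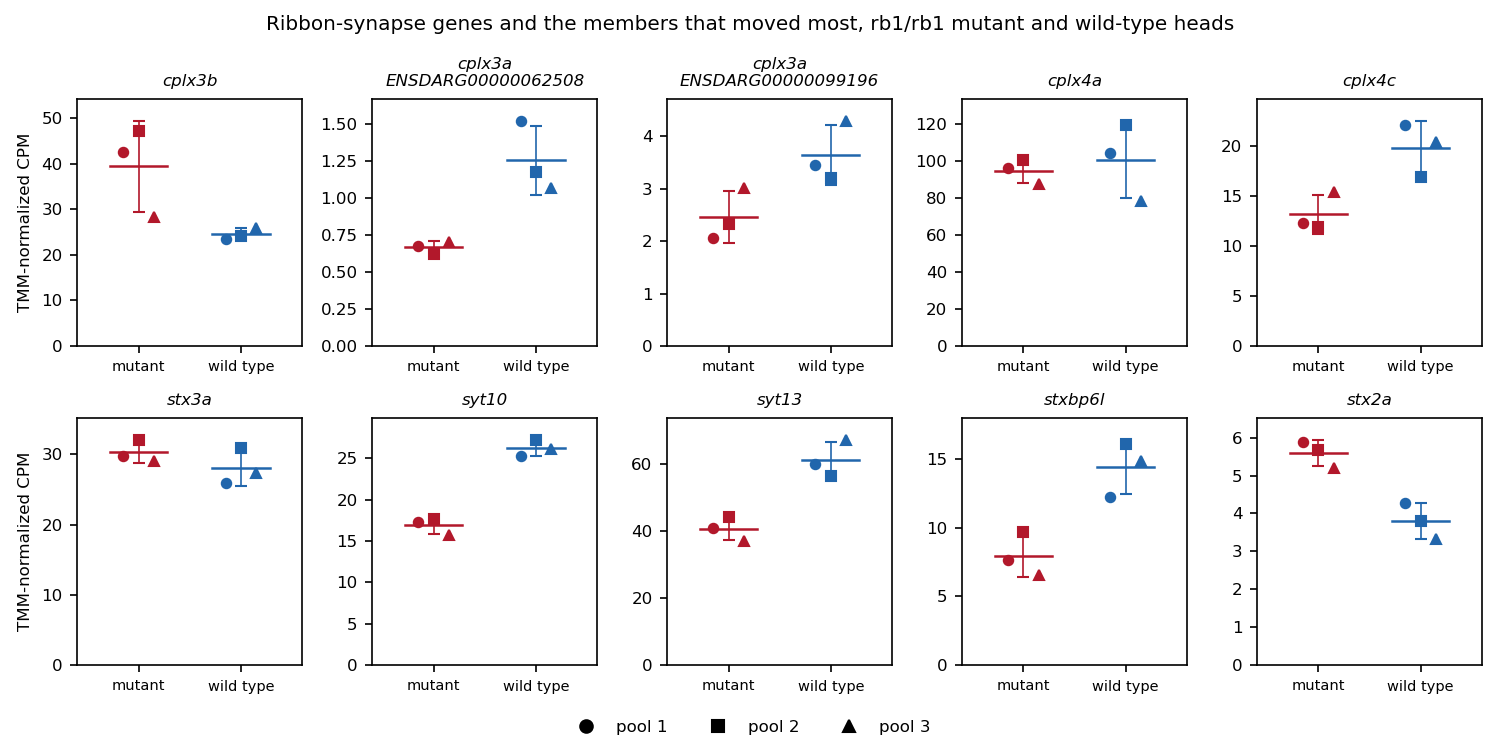
TMM-normalized CPM in each pool of the 6 tested ribbon genes and of *syt10*, *syt13*, *stxbp6l* and *stx2a*, mutant in red on the left and wild type in blue on the right. Lines are means, bars SDs (n = 3) and symbols pool numbers. *cplx3b* is higher in the mutant at 28.3 to 47.2 CPM, against 23.4 to 25.9 CPM in wild type, while both *cplx3a* identifiers, *cplx4c*, *syt10*, *syt13* and *stxbp6l* lie below wild type in every mutant pool.

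Markers of the cells that hold ribbons were read beside these genes. Of 21 photoreceptor markers (opsins, transducins, arrestins and others), 6 were lower in the mutant at an adjusted p of 0.05 and 0 higher. The 6 were *rho*, *gnat1*, *pde6a*, *pde6b*, *sagb* and *opn1mw2*. Those that did not pass included *opn1sw1*, *opn1sw2*, *opn1mw1*, *opn1lw1*, *opn1lw2*, *gnat2*, *pde6c* and *arr3a*. Of all tested genes, 2.17% were lower and 3.82% higher. With the pool number as a block, 7 of the 21 were lower (beside 917 of 22753 tested genes). Without overlap between the groups, 9 of the 21 were lower and 0 higher (beside 13.2% and 16.1% of all genes). The median log2 fold change of the 21 was -0.44, with a summed level of 14867 to 20617 CPM in the mutant, against 20153 to 23410 CPM in wild type. Of 11 bipolar cell markers 0 passed in either direction (median -0.07, 1325 to 1793 CPM in the mutant and 1568 to 1731 CPM in wild type). Most of this sum was 1 gene, *gnb3b*, with 933, 918 and 1443 CPM in mutant pools 1 to 3. The sum therefore follows that gene and is not a measure of bipolar cell content. Whether *gnb3b* comes from bipolar cells alone was not tested. In 2 of the 11, *gnb3a* and *vsx1*, every mutant pool was above every wild-type pool, and in 0 below (beside 16.1% and 13.2% of all genes). For *vsx1* the log2 fold change was 0.48 (edgeR adjusted p = 0.0544). Of 16 hair cell markers 2 were lower, *tmc2a* and *s100s* (beside 2.17% of all tested genes), and 0 higher. Their median log2 fold change was -0.16. Without overlap, 8 of the 16 were lower and 0 higher (beside 13.2% and 16.1% of all genes). Summed levels were 250 to 315 CPM in the mutant and 333 to 343 CPM in wild type. None of these markers was at 0 in all pools. Their part in the levels of the ribbon complexins was not tested.

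Of 15 other genes of ribbon structure and release, 1 was lower and 0 were higher at an adjusted p of 0.05 (beside 2.17% and 3.82% of all tested genes), with a median of -0.20. This was *slc17a8*, coding for the vesicular glutamate transporter of hair cells, with 4.84, 4.87 and 4.96 CPM in the mutant, against 7.93, 8.36 and 7.76 CPM in wild type. The pools of each genotype lay close together and far from the other (log2 fold change -0.71, SE 0.11, edgeR adjusted p = 0.0135).

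Of the 19 other synaptotagmins, 2 were lower at an adjusted p of 0.05 (10.5%, against 2.17% of all tested genes). None was higher (0%, against 3.82%), and the median log2 fold change was -0.02. The clearest was *syt10* (ENSDARG00000045750), coding for a calcium-binding synaptotagmin that in mouse olfactory bulb neurons drives secretion of a growth factor. It had 17.3, 17.7 and 15.7 CPM in the mutant, against 25.3, 27.2 and 26.1 CPM in wild type. The groups were tight and far apart, and the expression in the mutant was 0.65 of that in wild type (log2 -0.63, SE 0.09, 95% interval -0.85 to -0.42, edgeR adjusted p = 0.0117). The call ended without mutant pool 1 (0.0692) or wild-type pool 2 (0.0754), while the log2 fold change stayed between -0.66 and -0.58 whichever pool was left out.

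The second was *syt13* (ENSDARG00000012306), coding for a synaptotagmin that does not bind calcium. It had 40.9, 44.0 and 37.0 CPM in the mutant, against 59.8, 56.3 and 67.0 CPM in wild type, again without overlap. Its log2 fold change was -0.59 (SE 0.11, 95% interval -0.83 to -0.34, edgeR adjusted p = 0.0229). Leaving out mutant pool 1 (0.115), wild-type pool 1 (0.0519), wild-type pool 2 (0.0752) or wild-type pool 3 (0.0757) ended the call without turning the direction.

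The remaining 17 synaptotagmins did not pass. They included *syt4* (-0.02, -0.24 to 0.19) and *syt11b* (0.02, -0.17 to 0.20), which act in dense-core and other vesicle traffic, and the slow release sensors *syt7a* (0.17, -0.46 to 0.80) and *syt7b* (-0.20, -0.64 to 0.24). The most abundant, *syt5b*, was at 96.5 ± 7.67 FPKM in the mutant and 93.9 ± 10.5 FPKM in wild type (log2 fold change -0.02). The scarce *syt15* had 1.59, 0.942 and 2.95 CPM in the mutant and 1.45, 1.75 and 1.58 CPM in wild type, a log2 fold change of 0.19 with an interval of -0.68 to 1.07 that allows a change of either sign.

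Of the 29 other SNARE and Munc18-family genes, 0 were higher at an adjusted p of 0.05 (against 3.82% of all tested genes). The 1 that was lower (3.45%, against 2.17%) was *stxbp6l* (ENSDARG00000028354). It is related to amisyn, a syntaxin-binding protein that can take the place of a vesicle SNARE. It had 7.66, 9.68 and 6.54 CPM in the mutant, against 12.2, 16.1 and 14.9 CPM in wild type, so even the highest mutant pool was below the lowest wild-type pool. The expression in the mutant was 0.55 of that in wild type (log2 -0.85, SE 0.17, 95% interval -1.25 to -0.45, edgeR adjusted p = 0.0324). Without mutant pool 1 (0.138), mutant pool 3 (0.0502), wild-type pool 2 (0.143) or wild-type pool 3 (0.103) it no longer passed.

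The Synip gene *stxbp4*, whose mammalian product binds syntaxin 4, was below wild type in every mutant pool. It had 5.76, 7.23 and 6.56 CPM in the mutant, against 8.26, 11.8 and 10.6 CPM in wild type (log2 -0.65, SE 0.16), and had an edgeR adjusted p of 0.0620. With the replicate block the adjusted p was 0.0238.

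The genes *stx2a* and *stx4*, coding for plasma membrane syntaxins outside the synapse, lay above wild type. *stx2a* had 5.88, 5.67 and 5.21 CPM in the mutant, against 4.28, 3.80 and 3.33 CPM in wild type, and every mutant pool was above every wild-type pool (1.47-fold, log2 0.55, SE 0.14, edgeR adjusted p = 0.0651). With the replicate block its adjusted p was 0.0447. *stx4* had 24.1, 21.0 and 25.3 CPM in the mutant, against 21.0, 18.3 and 16.0 CPM in wild type (log2 0.35, edgeR adjusted p = 0.153). The groups only just separated. The Golgi syntaxin *stx10* had 22.2, 21.9 and 23.6 CPM in the mutant, against 20.1, 18.8 and 19.0 CPM in wild type (0.22, edgeR adjusted p = 0.177), and *stx18* of the endoplasmic reticulum was the fourth without overlap (0.13, edgeR adjusted p = 0.504). The other member below wild type in every mutant pool was the endosomal *stx12l* (-0.17, edgeR adjusted p = 0.306).

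The rest of this class overlapped between the genotypes. The endosomal and Golgi genes *stx5a*, *stx6*, *stx8*, *stx12*, *stx16* and *vamp4* lay between -0.11 and 0.10. The tomosyn genes *stxbp5a*, *stxbp5b* and *stxbp5l*, coding for inhibitors of SNARE assembly, had log2 fold changes of -0.17, 0.03 and -0.20. The Munc18 relatives *stxbp2* and *stxbp3* had -0.13 and 0.15, and *vamp3* and *vamp8*, vesicle SNAREs of general membrane traffic, had -0.13 and -0.31.

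Of the members, 17 pairs of a and b paralogues could be compared by their FPKM ratio, and 16 had at least 60 counts for each gene. In 12 of the 16 the ratio overlapped between the genotypes when pool numbers were ignored, and it was higher in 1 and lower in 3. No ratios of other gene pairs were computed, so the counts of pairs have no share to be read against. Of all tested single genes, 16.1% lay higher and 13.2% lower in the mutant without overlap. Between same-numbered pools, 8 of the 12 overlapping pairs differed in mixed directions. Of the others, 2 were higher in all 3 pools (*syt7a* to *syt7b* and *syt14a* to *syt14b*) and 2 were lower in all 3 (*snap25a* to *snap25b* and *syt5a* to *syt5b*). The ratio of *stx2a* to *stx2b* was higher in the mutant, where *stx2a* made up 38.0%, 36.2% and 30.8% of the pair, against 26.3%, 24.9% and 24.8% in wild type. Besides *cplx3*, the ratio was lower without overlap for *stxbp5a* to *stxbp5b* (a difference of -0.20 on the log2 scale) and for *syt11a* to *syt11b* (-0.22). The ratio of *snap25a* to *snap25b* overlapped, with *snap25a* at 45.7%, 48.1% and 52.2% of the pair in the mutant and 51.7%, 52.7% and 52.6% in wild type. The log2 ratio differed by -0.35, -0.27 and -0.02 between mutant and wild-type pools 1, 2 and 3.

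The genes below, which act on the same vesicles before and after fusion, gave no calls at an adjusted p of 0.05. Of all tested genes, 3.82% were higher and 2.17% lower, and lists this short would hold few calls at these shares. Of 34 genes of vesicle priming and the active zone (*unc13*, *rims*, *bsn*, *pclo* and others), 32 were tested and 0 passed an adjusted p of 0.05 in either direction (edgeR, median log2 fold change -0.10). Their summed level was 1685, 1946 and 1292 CPM in the mutant pools and 1553, 1841 and 1911 CPM in the wild-type pools, with mutant pool 3 again the lowest. No gene passed in either direction among 8 genes of SNARE disassembly (*nsf* and *nap* genes, median -0.08), 9 transmitter transporters (-0.02) and 15 genes of vesicle recycling (-0.00). Without overlap between the groups, 3 of the 8 disassembly genes were lower and 0 higher (beside 13.2% and 16.1% of all genes). Their summed level was 602 to 628 CPM in the mutant, against 642 to 674 CPM in wild type. In the priming, transporter and recycling lists, 3, 1 and 1 genes were lower and 1, 0 and 3 higher. The transporters were vesicular except *slc6a5*, coding for a glycine transporter of the plasma membrane.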

How the data were processed

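The transcriptome of 3 *rb1/rb1* mutant and 3 wild-type pools was measured by single-end RNA-Seq (50 bp) of TruSeq libraries in 2 lanes each. GSNAP alignment to GRCz10 and HTSeq counting of unique alignments were done by the authors, and the deposited counts are raw. How strand was set in HTSeq is not given in the sources used here, so antisense and overlapping genes are uncertain. The deposited FPKM values equal the authors' counts divided by exonic length (in the same files) and by the lane total. The authors' table of mean counts, log2 fold changes, SEs, Wald scores and p-values was not used.

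Lanes agreed within sampling noise and were summed, so n is 3 per genotype, with 41065256 to 47700950 counts per library. CPM are TMM-normalized from the summed counts, and the FPKM of a pool is the mean of the deposited values of its 2 lanes. Genotype was tested with edgeR 4.0.16 in R 4.3.3 (quasi-likelihood test, TMM, filterByExpr), with Benjamini-Hochberg adjustment over 22753 genes. SEs are the log2 fold change over the root of F. The scripts were tested on simulated counts. Alternatives were DESeq2 1.42.0, DESeq2 size factors, no filter, another pseudocount, a wider ribbon class, leaving out each pool, and the pool number as a replicate block.

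Labels share pool numbers between genotypes. Deviations of same-numbered pools from their group means correlated with r = 0.41, 0.50 and 0.25 for pools 1, 2 and 3, and differently numbered pools with -0.42 to 0.11. This is a hint from the data, since the pools are different animals. Tests, SDs and counts of overlap ignore the pool number, and values with the replicate block are given beside them where they change a call.

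The members, classes and lists were chosen with earlier results of these data known. Named by rule were members at an adjusted p of 0.05, 11 core genes, the ribbon class, and the 5 largest rises and falls with a mean of at least 1 CPM, and of the other lists up to 3 genes at an adjusted p of 0.05. Other members named, and other list genes named with a result, were chosen after their values were seen. P-values set the genotype difference against the spread between 3 pools per genotype, with that spread estimated partly from all genes. Some conventional genes are counted in their class but not reported here by name.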

Additional observations from a re-analysis of the deposited data

How the results depend on the processing

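Over all genes 269 were called with edgeR, 261 with DESeq2 size factors in edgeR, 340 with no filter and 1107 with DESeq2, which has its own test, scaling and filter, and leaving out each pool gave 1 to 219. At an adjusted p of 0.05, DESeq2 had 2 members higher and 7 lower, beside 1442 higher and 1192 lower of 23080 genes. Of these members, 5 were also called lower at the stricter threshold. The replicate block had 1 higher and 6 lower (beside 1161 and 917 of 22753 genes). It added *cplx4c*, *stxbp4* and *stx2a*, and changed no other call of a member. Leaving out each pool gave 0 to 1 members higher, 0 to 5 lower, and 0 to 1 called higher (*cplx3b* without mutant pool 3). The count lower was 0 without mutant pool 1 or wild-type pool 2 and 1 without wild-type pool 3, and with no filter *cplx3a* (ENSDARG00000062508) dropped out. The ribbon median moved to -0.10 with DESeq2 and -0.090 with no filter, where *cplx4b* enters it, to -0.16 with *syt5a* and *syt5b* added, to -0.088 with both *cplx3a* identifiers summed, and to between -0.38 and -0.27 when a pool was left out. The conventional median was between -0.16 and 0.018, and the median of the other SNARE genes was between -0.12 and -0.017 when a pool was left out. The sign turned for some genes near 0, for which leaving out each pool gave -0.033 to 0.11 (*snap25b*), -0.024 to 0.090 (*cplx2*), -0.25 to 0.0033 (*syt1a*), -0.23 to 0.020 (*sypa*), -0.33 to 0.51 (*syt15*) and -0.24 to 0.051 (*cplx4a*). With 3 pools per genotype, changes well under 1.5-fold were mostly not detectable, and scarce genes such as *stx1a* and *syt15* have intervals wider than 1.5-fold.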

Other observations

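Among the 12 neuron markers, the 2 that were lower in the mutant were both neurofilament genes. *nefla* had 20.8, 19.8 and 27.3 CPM in the mutant, against 37.9, 38.0 and 31.4 CPM in wild type (log2 fold change -0.66, edgeR adjusted p = 0.0423), and *nefmb* had 44.9, 48.6 and 56.2 CPM in the mutant, against 69.6, 68.7 and 65.0 CPM in wild type (-0.44, edgeR adjusted p = 0.0499). Both missed the threshold with the replicate block (0.0540 and 0.0552). In both genes mutant pool 3, which was lowest for most conventional fusion genes, was the mutant pool nearest to wild type. Of the other cell type lists, 3 of 10 glia markers and 1 of 9 epithelium markers were lower at an adjusted p of 0.05 (edgeR). None was higher, beside 2.17% of all tested genes lower and 3.82% higher. With the block, 4 of 10 and 0 of 9 were lower, beside 917 of 22753 tested genes. In the main fit, 0 of 10 muscle and 0 of 7 tested pituitary markers passed in either direction. The glia calls were the myelin genes *plp1a*, *plp1b* and *mbpa*, with *mpz* added by the block. Of the other glia markers, *glula* was at -0.32, and *fabp7a*, *gfap*, *cx43*, *slc1a3b* and *slc1a2b* lay between -0.16 and 0.16.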
